A study of Homo sapiens with 8 samples.

Results

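CCL3 and its receptor gene CCR1 were followed across 8 arrays of human multiple myeloma cells, 2 genes of the 14812 that carried a gene symbol. All rows whose platform annotation gave the symbol CCL3 (gene identifier 6348) or CCR1 (gene identifier 1230) were taken, which gave 1 row for each gene. Both genes had been picked after their intensities by cell line and by condition were known, so those values are given as a description and carry no test. The arrays came from the lines KMS11, KMS18, KMS34 and OPM2, which per the labels all carry the t(4;14) translocation. Each line gave 1 array of a control culture (4 in all) and 1 array of a culture with a lentiviral short hairpin knockdown of MMSET I, an isoform of the histone methyltransferase gene NSD2 (4 in all). Per the labels' protocol, cultures were infected in 8 µg/mL polybrene, and RNA was taken 48 h after the medium change. A treatment time of 72 h stands in the series' design text, which mentions only KMS11. The sources used here do not give the hairpin sequences or the content of the control virus.

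CCL3, also called macrophage inflammatory protein 1 alpha, is a small secreted chemokine that binds the receptor CCR1. CCR1 is a G protein-coupled receptor that signals through inhibitory G proteins and moves leukocytes towards their ligands. In myeloma, CCL3 from the tumour cells is known as a factor that activates osteoclasts. Earlier work on myeloma placed CCR1 among the genes raised by the transcription factor MAF, and CCL3 downstream of the receptor FGFR3.

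The upstream sequences of the genes are shown first, because CCL3 has near-copies on the same chromosome and because the search for motifs below refers to them. Each is the stretch of 250 bases before an annotated start, written 5′ to 3′ on the gene's strand, from RefSeq in the build GRCh38.p14. The CCL3 stretch is chr17:36090144-36090393, that of its near-copy CCL3L3 is chr17:36196759-36197008 and that of CCR1 is chr3:46208314-46208563, each on the minus strand. The table lists 3 starts for CCL3, of which only the one at the 5′ end of the gene is shown and searched, and 1 each for CCL3L3 and CCR1. Capitals mark the letters TATAAA, a form of the TATA box, which was added to the search after the sequences had been seen.
CCL3: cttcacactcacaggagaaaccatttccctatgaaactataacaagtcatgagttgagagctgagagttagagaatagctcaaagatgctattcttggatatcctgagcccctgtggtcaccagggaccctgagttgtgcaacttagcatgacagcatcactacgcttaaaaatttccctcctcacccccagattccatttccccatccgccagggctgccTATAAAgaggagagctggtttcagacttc
CCL3L3: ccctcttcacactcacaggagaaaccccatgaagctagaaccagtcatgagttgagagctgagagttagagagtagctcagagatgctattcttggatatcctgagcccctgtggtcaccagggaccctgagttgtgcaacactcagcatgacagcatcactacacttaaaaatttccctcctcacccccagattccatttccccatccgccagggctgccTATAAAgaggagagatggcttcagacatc
CCR1: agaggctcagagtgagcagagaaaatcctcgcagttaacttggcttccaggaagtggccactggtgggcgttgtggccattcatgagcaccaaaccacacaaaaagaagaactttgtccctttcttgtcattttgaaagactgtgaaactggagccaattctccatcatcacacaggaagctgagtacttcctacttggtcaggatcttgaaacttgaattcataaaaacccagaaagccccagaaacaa
TATAAA lay at positions -29 to -24 from the start in CCL3 and in CCL3L3, and the CCR1 stretch did not hold it. Of 35116 RefSeq stretches of this length, 10.7% held TATAAA on either strand. Aligned end to end, the CCL3 and CCL3L3 stretches had the same base in 234 of 244 aligned positions (95.9%). A search of both strands for GGNNTTTCC (an NF-kB type site), TGCTGAC (a part of the MAF recognition element) and TGANTCA (AP-1, the same on both strands) matched 0 places in these stretches. Of the 35116 stretches, 5.48% held the first, 3.43% the second and 6.57% the third. The entry for CCL3L1, the near-copy that has a row on the array, was not in the table.

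Some plasma cell genes were bright in the 4 lines. On the 8 arrays SDC1 (syndecan 1) lay between 844 and 1112, IRF4 between 2255 and 4673 and XBP1 between 1266 and 2766, surface and transcription factor markers of plasma cells, while CD38 ranged from 50.6 in the KMS11 control to 416 in the KMS18 control. POU2AF1 (70.7 to 88.4) and CD27 (56.2 to 86.6), of the same list, lay nearer to the array medians of 49.3 to 53.5. Of 18 listed plasma cell and B cell genes 9 had a row, all 9 were tested, and limma called 0 for the knockdown, with 0 at an unadjusted p under 0.05, where 8.41% of all tested genes lay. The defining monocyte markers CD14, LYZ and CD163, of interest because monocytes also express CCL3 and CCR1, lay between 28.2 and 39.2. Genes were tested only where their mean over the arrays was at least 46.7, and these 3, singled out after their values were seen, were not. Other genes of the myeloid list were brighter, with CST3 at 587 to 870 on single arrays, S100A9 at 92.3 to 154, FCN1 at 86.0 to 137, CD68 at 88.2 to 119 and CSF1R at 66.8 to 86.6. Of the 16 myeloid markers listed, 12 had a row and 7 were tested, and their summed intensity was 1319 to 1484 in the controls and 1326 to 1589 in the knockdowns, with KMS18 highest in both. The markers of T and NK cells summed to 422 to 511 in controls and 442 to 512.4 in knockdowns, and those of stroma and endothelium to 148 to 155 and 142 to 160. The part of such cells in the values of CCL3 and CCR1 was not tested. The 2 genes of the study's title were followed next, of which GLO1 is not the target of the hairpin. GLO1 fell in 4 of 4 lines (log2 difference -0.76, SE 0.069, limma with cell line as a block, adjusted p = 0.00142). Without the block GLO1 was not called (limma, adjusted p = 0.999988), and over the other alternatives its adjusted p ranged from 6.38e-06 to 0.0382. NSD2, whose row is not known to read MMSET I alone, had a difference of -0.18 and was lower in 4 of 4 lines (SE 0.064, adjusted p = 0.472). The loss of MMSET I itself was thus not established by these values.

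CCL3 was brightest in KMS18. Its intensity on the control arrays was 160.2 in KMS18, 75.0 in KMS34, 71.1 in OPM2 and 66.7 in KMS11. On the knockdown arrays it was 207 in KMS18, 121 in KMS34, 89.6 in KMS11 and 81.1 in OPM2. No detection calls were used, so how much of the dimmer values, 66.7 to 75.0 in 3 of the controls, is background is not known, and the fold values below are as measured. In bulk RNA, fewer cells with a transcript and less of it per cell cannot be told apart. Both KMS18 arrays lay above the other 6, while the control and knockdown groups overlapped, because the KMS18 control exceeded 3 of the knockdown arrays. The arithmetic mean over the 2 arrays of a line was 184 ± 33.2 (SD, n = 2) in KMS18, 97.9 ± 32.3 in KMS34, 78.2 ± 16.2 in KMS11 and 76.1 ± 7.07 in OPM2. This spread contains the knockdown difference, since a line had no second array of the same condition. The fold values, and the line means of all other genes here, are geometric means from the log2 scale. KMS18 stood 1.91-fold above KMS34. The arrays of KMS34, KMS11 and OPM2 overlapped, which does not show that these 3 lines were alike. KMS34 was the brightest of the 3 on the control arrays and on the knockdown arrays. Both KMS18 arrays lay above the other 6 in 11% of the 11109 genes tested. The highest line mean was 2.40-fold the lowest, where 18.8% of tested genes spanned at least 2-fold, and without KMS18 the range of line means dropped from 1.26 to 0.33 log2 units.

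In every line CCL3 was brighter on the knockdown array than on the control array of the same line. The excess was 60.9% in KMS34, 34.3% in KMS11, 29.3% in KMS18 and 14.1% in OPM2. The mean intensity was 93.3 ± 44.8 (SD, n = 4) in controls and 125 ± 57.6 in knockdowns, and the log2 difference was 0.42 ± 0.21 (SD over 4 lines), or 1.34-fold. KMS34 had the widest difference, 0.69 on the log2 scale or 1.61-fold, and OPM2 the narrowest, 0.19. KMS34 was the 1 line where CCL3 was at least 1.5-fold higher on the knockdown array, as were 0.117% of the tested genes there, 0.27% in KMS11, 0.045% in KMS18 and 0.09% in OPM2. CCR1 passed 1.5-fold in 0 lines. By size, the mean difference of CCL3 ranked 4 and that of CCR1 ranked 140 from the top of 11109 genes. Both genes had been picked with these values known, so nothing is read from the ranks.

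CCR1 was dimmest in KMS18 and brightest in KMS11 and OPM2. Its intensity on the control arrays was 481 in OPM2 and 446 in KMS11, then 276 in KMS34, and 56.3 in KMS18. On the knockdown arrays it was 569 in KMS11, 499 in OPM2, 279 in KMS34 and 78.0 in KMS18. Both KMS18 arrays lay below the other 6, close to the array medians, so whether KMS18 held CCR1 above background is not known. The line means were 508 ± 86.7 (SD, n = 2) in KMS11, 490.0 ± 12.3 in OPM2, 278 ± 2.04 in KMS34 and 67.1 ± 15.4 in KMS18. KMS11 and OPM2 overlapped, with OPM2 brighter on the control array and KMS11 on the knockdown array. OPM2 stood 1.76-fold above KMS34, and KMS34 measured 4.19-fold above KMS18, without overlap of arrays in either case. The measured range from KMS11 to KMS18 was 7.61-fold. Both values against KMS18 are lower bounds if its signal is background. Of the tested genes, 18.8% spanned at least 2-fold, as CCR1 did, and 1.14% at least 8-fold, which CCR1 did not reach. Both KMS18 arrays lay below the other 6 in 16.3% of the tested genes.

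The CCR1 knockdown difference came from 2 of the lines. CCR1 was 27.5% brighter on the knockdown array in KMS11 and 38.6% in KMS18, but 1.05% in KMS34 and 3.62% in OPM2. The KMS18 figure rests on 56.3 and 78.0, close to the array medians, where the part of background is not known. The mean intensity was 315 ± 194 (SD, n = 4) in controls and 356 ± 223 in knockdowns. The log2 difference was 0.22 ± 0.22 (SD over 4 lines), a mean no larger than its spread between lines.

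**Figure D1:**
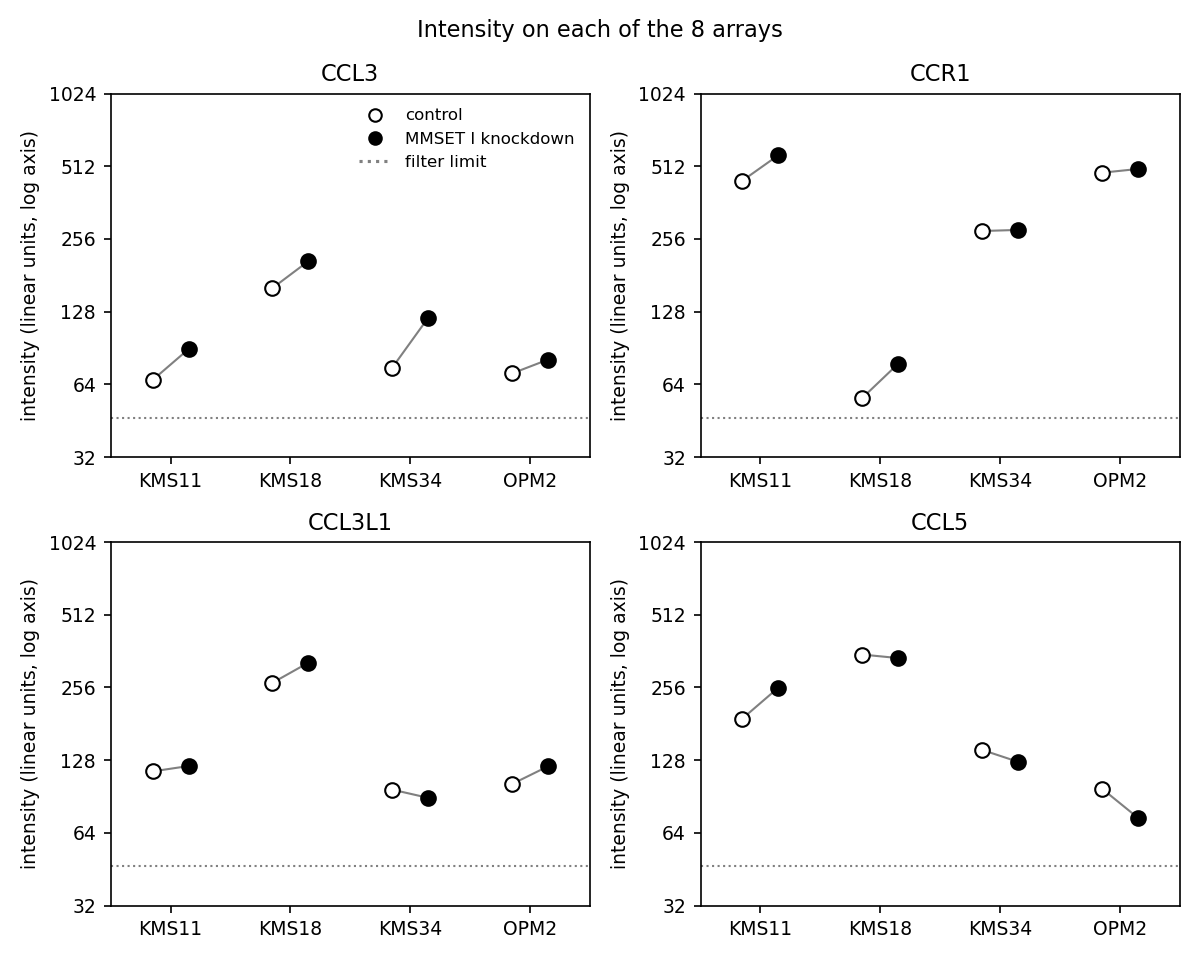
Intensity of CCL3, CCR1, CCL3L1 and CCL5 on each array (linear units on a log axis), with open points for control and filled points for knockdown, joined within a line, and a dotted line at the filter limit of 46.7. CCL3 runs from 66.7 to 207 with KMS18 highest, and CCR1 from 56.3 to 569 with KMS18 lowest.

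The limma fit over all 11109 genes, with Benjamini-Hochberg adjustment, called 0 of the 2 genes for the knockdown, and 0.117% of tested genes were called (0.018% higher and 0.099% lower). When the filter was raised to the 50th percentile, so that 7406 genes were adjusted over, CCL3 was called, and in the other alternatives neither gene was. Both genes were higher on the knockdown array in 4 of 4 lines, as were 8.29% of tested genes, and 8.76% were lower in 4 of 4 lines. Between lines the moderated F test called both genes and 75.7% of all genes tested. These contrasts had served to pick the 2 genes, so nothing is read from the counts.

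Set against each other over the 8 arrays, CCL3 and CCR1 had Pearson's r of -0.87 on log2 values (Spearman's rho -0.50). The points are 4 lines with 2 arrays each, and KMS18 lies far from the rest. Over the 6 arrays of the other 3 lines r was -0.38. Within each line the knockdown array had the higher value of both genes.

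**Figure D2:**
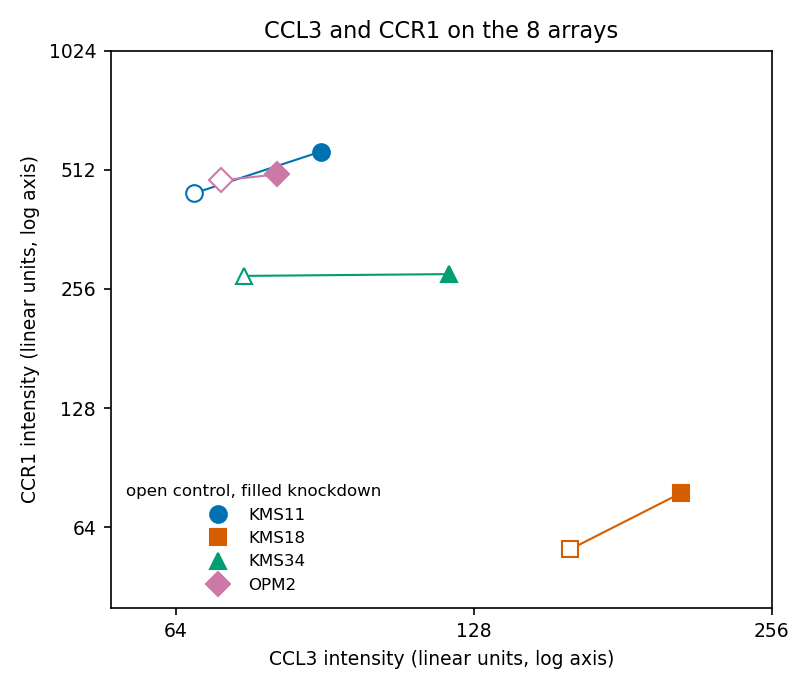
CCR1 against CCL3 intensity on the 8 arrays (linear units, both axes log), with open symbols for control, filled symbols for knockdown and a line joining the arrays of 1 cell line. KMS18 sits alone at high CCL3 (160.2 and 207) and low CCR1 (56.3 and 78.0), and each joining line runs up and to the right.

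Other ligands were taken from a list of 28 CC chemokine genes, of which 22 had a row and 12 were tested, CCL3 among them. CCL3L1 encodes a protein nearly identical to CCL3. Its control arrays read 268 in KMS18, 115 in KMS11, 102 in OPM2 and 96.7 in KMS34, and its knockdown arrays 324, 121, 121 and 89.4 in the same order. KMS18 was again the highest line, at 2.50-fold the next one, and the lines differed (F test, adjusted p = 1.4e-07). Unlike CCL3, it was lower on the knockdown array in KMS34, and its mean log2 difference was 0.12 (SE 0.075, adjusted p = 0.708). Over the 8 arrays r between CCL3 and CCL3L1 was 0.83, and -0.44 over the 6 arrays without KMS18. The difference between the knockdown values of CCL3 and CCL3L1 was not tested. Because the genes are near-copies and the probe sequences were not used here, how far each row reads the other gene's RNA is uncertain.

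CCL5, a further ligand of CCR1, had the widest range of line means among the tested ligands. It read 350.3 in the KMS18 control, 190.4 in KMS11, 141 in KMS34 and 97.7 in OPM2, and 339, 255.7, 126 and 74.0 on the knockdown arrays. No neighbouring lines in this order overlapped, and the line means spanned 4.05-fold (F test, adjusted p = 7.19e-07). The knockdown difference went in both directions, 0.43 in KMS11 and -0.40 in OPM2, with a mean of -0.05 (SE 0.11, adjusted p = 0.935).

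CCL4, which lies next to CCL3 on the chromosome and is often made by the same cells, stayed between 21.4 and 27.2 on all arrays. It belongs to the 10 listed ligands with a row that were not tested because they were dim, together with CCL2, CCL7, CCL8, CCL11, CCL18, CCL20, CCL23, CCL24 and CCL26. These 10 ranged from 21.4 to 51.4. Of them CCL7, CCL8 and CCL23 are known as ligands of CCR1, and they lay between 22.4 and 42.6. Of the 11 tested ligands other than CCL3, limma called 0 for the knockdown, with 0 at an unadjusted p under 0.05. Their median log2 difference was 0.029, against -0.0033 over all genes tested. The lowest was CCL21, at -0.14 and lower in 4 of 4 lines (adjusted p = 0.594). CCL1 had a mean of 0.10 (adjusted p = 0.791), with 0.39 in KMS11 and -0.15 in KMS34. The other tested ligands CCL16, CCL17, CCL19, CCL22, CCL25, CCL27 and CCL28 had mean differences between -0.05 and 0.05. Between lines 6 of the 11 passed the F test, against 75.7% of all tested genes, and only CCL5 and CCL3L1 among them spanned at least 2-fold, against 18.8%.

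Among 23 listed chemokine receptors, 20 had a row and 12 were tested. CXCR4, the receptor that holds plasma cells in the bone marrow, read between 1202 and 1923, highest in the KMS18 control and lowest in the OPM2 knockdown. Its line means spanned 1.40-fold (F test, adjusted p = 0.000814), and its knockdown difference was -0.11 (SE 0.065, adjusted p = 0.691). CCR10, a receptor of plasma cells for CCL27 and CCL28, shared the KMS18 peak of CCL3. It read 273 and 278 on the KMS18 arrays, against 80.4 to 115 on the other 6 (F test, adjusted p = 1.52e-08), and its knockdown difference was 0.01.

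Apart from CCR1, CCR10 was the 1 tested receptor whose line means spanned at least 2-fold. CX3CR1 was highest in OPM2, at 102 on both arrays, against 56.4 to 76.1 elsewhere, a span of 1.72-fold (F test, adjusted p = 0.000183). CCR7 read 56.8 to 101 and ACKR3, a scavenging receptor, 49.4 to 79.9. The dim receptors CCR2, CCR4, CCR8, CCR9, CXCR1, CXCR2, ACKR2 and ACKR4 were between 25.05 and 54.6 on single arrays and were not tested. For the knockdown limma called 0 of the 11 tested receptors other than CCR1, with 0 at an unadjusted p under 0.05 and a median difference of -0.052. CXCR5 had the lowest mean, -0.17 (SE 0.082, adjusted p = 0.620), and CXCR3 the highest, 0.03. The remaining receptors CCR6, CXCR6, XCR1 and CCRL2 had means between -0.08 and 0.02.

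**Figure D3:**
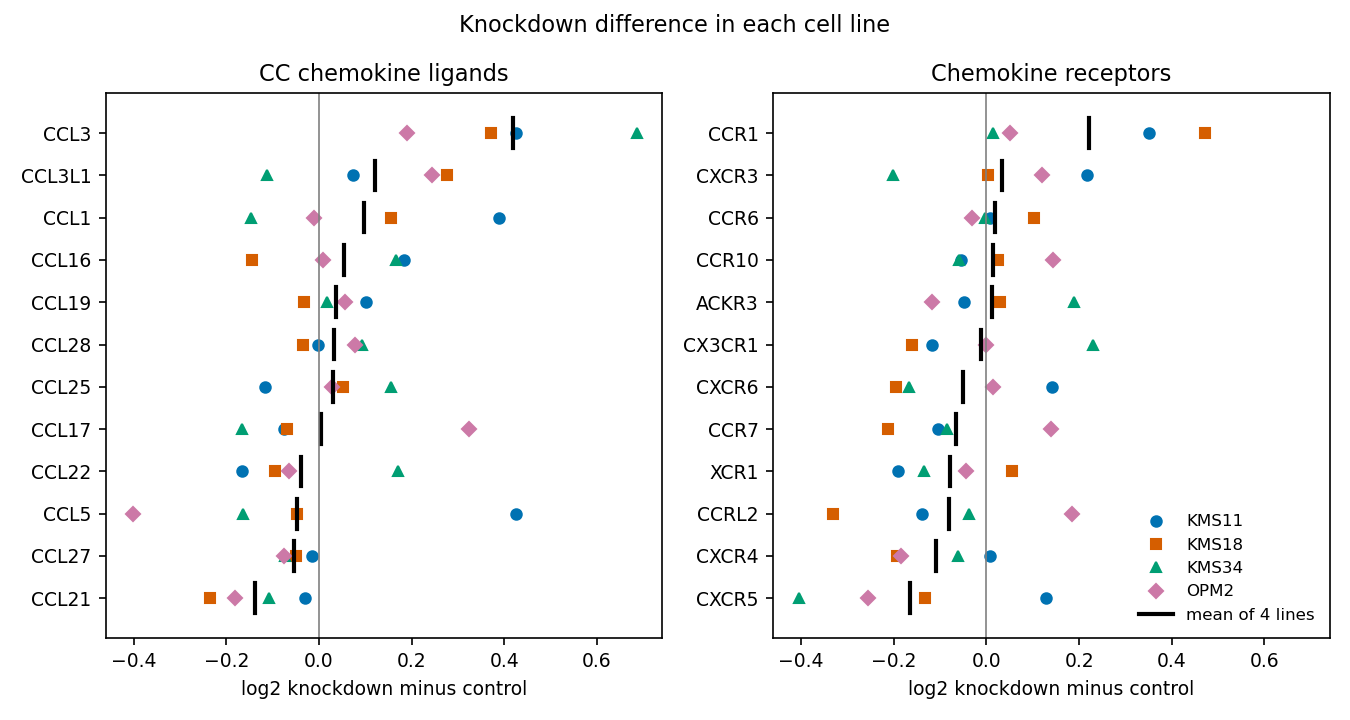
Knockdown minus control (log2) of the 12 tested CC chemokine ligands and the 12 tested chemokine receptors, with 1 symbol for each cell line and a black bar at the mean of 4 lines. CCL3 (mean 0.42) and CCR1 (mean 0.22) had been picked with these values known, and the means of the other genes lie between -0.17 and 0.12.

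For CCR1, 8 of the 10 nearest protein-coding genes (5 on each side) had a row and 6 were tested. Of these XCR1 and CCRL2 are receptor genes of the same cluster, and their line means spanned 1.21-fold and 1.30-fold with KMS18 highest. CXCR6 spanned 1.09-fold (F test, adjusted p = 0.654). LZTFL1, a gene of ciliary trafficking, was also highest in KMS18, with a line mean of 109.7 against 56.4 in OPM2 (F test, adjusted p = 7.22e-06). FYCO1, an autophagosome transport gene, was lowest in OPM2, at 147 against 210.2 to 225 in the other lines. LTF, the lactoferrin gene, was highest in KMS11, at 65.3 against 43.0 to 47.3. For the knockdown limma called 0 of the 6, with 1 at an unadjusted p under 0.05 (8.41% of all tested genes). This was FYCO1, at 0.15 (adjusted p = 0.593). For CCL3, 4 of the 10 nearest genes had a row and only CCL16 was tested, at 51.7 to 61.6 on all arrays (F test, adjusted p = 0.488). The dim neighbour CCL23, not tested, had the same order of line means as CCL3, from 39.4 in KMS18 to 34.6 in OPM2. Its KMS34 mean was 39.2 and its single arrays ran from 34.2 to 42.6, so nothing is read from this order. The dim neighbours CCL18 and CCL4, also not tested, differed from CCL3 in the place of OPM2. Their line means were highest in OPM2, the lowest line for CCL3, at 40.9 and 26.1. Their other lines came in the order of CCL3, with KMS18 above KMS34 and KMS34 above KMS11. At such dim values nothing is read from these orders either.

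Genes reported with MAF in myeloma were of interest for CCR1, and 8 of 13 listed had a row and 7 were tested. MAF itself read 1158 in the KMS11 control, 414 in KMS34, 166 in OPM2 and 72.2 in KMS18, and 1424, 379, 173 and 54.2 on the knockdown arrays. KMS18 was lowest for both genes, but the lines above it came in a different order. OPM2 had less MAF than KMS34, 169 against 396 as line means, and more CCR1. Over the 8 arrays r between CCR1 and MAF was 0.74, and 0.15 over the 6 arrays without KMS18. CCND2, the cyclin D2 gene, followed CCR1 more closely, with line means of 1093 in KMS11, 983 in OPM2, 824 in KMS34 and 557 in KMS18. For CCR1 and CCND2 r was 0.94, and 0.72 without KMS18.

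Other genes of that list had other orders. DEPTOR, an inhibitor of mTOR, was highest in KMS34 with a line mean of 1791 and lowest in KMS18 with 402. ARID5A, which encodes an RNA-binding protein, stood out in KMS11, at 991 against 222 to 294. For the knockdown limma called 0 of the 7 genes, and CCND2 alone had an unadjusted p under 0.05. It was lower in 4 of 4 lines (log2 difference -0.15, SE 0.064, adjusted p = 0.578), while CCR1 was higher in 4 of 4. TLR4 had the largest mean of the list, 0.22 (SE 0.13, adjusted p = 0.704), with 0.79 in KMS11 and -0.32 in KMS34.

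For CCL3, FGFR3 and the output of MAP kinase signalling were described in the same way. FGFR3 had line means of 2332 in KMS11, 1406 in OPM2, 1364 in KMS18 and 971 in KMS34, so the line brightest in CCL3 was not the brightest in FGFR3. FGFR3 was lower on the knockdown array in 4 of 4 lines (-0.13, SE 0.063, adjusted p = 0.610). Over the 8 arrays r between CCL3 and FGFR3 was -0.33, and -0.53 over the 6 arrays without KMS18. All 17 of the 22 listed genes that had a row were tested and limma called 0, with 2 at an unadjusted p under 0.05, against 8.41% of all tested genes. These were ETV5 (-0.17, SE 0.063, adjusted p = 0.516) and JUNB (-0.17, SE 0.063, adjusted p = 0.513), both transcription factors that act after MAP kinase signals and both lower in 4 of 4 lines. The MAP kinase phosphatase gene DUSP6 had a mean of 0.15 (adjusted p = 0.618). DUSP4, a related phosphatase gene, differed most between lines, at 708 in OPM2 and 196 in KMS11 against 82.4 in both other lines. The median difference of the 17 genes was -0.027, against -0.0033 over all genes tested.

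NF-kB genes were listed because NF-kB is a known activator of CCL3 in leukocytes. Of 32 genes, 22 had a row and 20 were tested, limma called 0 for the knockdown with 0 at an unadjusted p under 0.05, and the median was -0.011. Between lines 18 of the 20 passed the F test and 13 spanned at least 2-fold, against 75.7% and 18.8% of all tested genes. Only some shared the KMS18 peak of CCL3. PLEK, the pleckstrin gene, read 816 and 784 in KMS18 against 52.9 to 81.2 elsewhere (F test, adjusted p = 2.35e-11). TRAF3, an inhibitor of the noncanonical pathway, was highest in KMS18 with a line mean of 379 and had 314 in KMS11, 142 in KMS34 and 141 in OPM2. In contrast, the adhesion gene ICAM1 was highest in KMS11, at 1045, and had 442 in KMS18, 535 in KMS34 and 79.4 in OPM2. NFKB2 likewise was highest in KMS11, at 515, and lowest in OPM2, at 142.

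CXCL10, a chemokine of the CXC family, had the largest knockdown difference of the NF-kB list, 0.18 (SE 0.094, adjusted p = 0.638), of which 0.60 was in KMS11. BCL3 had a mean of -0.13 (adjusted p = 0.713) and CFLAR one of 0.08 (adjusted p = 0.782). TNF lay between 51.3 and 58.0 on all arrays and CXCL8 between 24.97 and 29.6.

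Signalling genes that act after CCR1 were poorly covered, with 11 of 37 listed genes having a row and 9 tested. PTK2B, a calcium-activated kinase, resembled CCR1 in being lowest in KMS18, at 135 against 475 in KMS11, 661 in KMS34 and 994 in OPM2 as line means (F test, adjusted p = 2.71e-09). RGS1 and RGS16, which shut off signals of G proteins, were highest in KMS11, at 315 and 561. RGS1 then had 93.3 in KMS34, 59.0 in KMS18 and 39.8 in OPM2. STAT3 was also highest in KMS11, at 1123, and lowest in KMS18, at 478, while JAK2 was highest in KMS18, at 168, and lowest in KMS11, at 89.9. For the knockdown limma called 0 of the 9, with 0 at an unadjusted p under 0.05. The receptor kinase gene GRK5 had the largest mean, 0.12 (SE 0.068, adjusted p = 0.679).

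Among other bone-active factors of myeloma, 17 of 28 had a row and 11 were tested, and limma called 0. DKK1, a secreted inhibitor of WNT signalling that lowers bone formation, alone had an unadjusted p under 0.05. Its control arrays read 70.6 in KMS34, 60.4 in OPM2, 38.3 in KMS18 and 37.8 in KMS11, and its knockdown arrays 100.3, 82.7, 39.7 and 38.7. It was thus higher on the knockdown array in 4 of 4 lines, mostly in KMS34 and OPM2, with a mean log2 difference of 0.26 (SE 0.087, adjusted p = 0.447). The KMS11 and KMS18 values lie under the limit of 46.7.

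HGF, hepatocyte growth factor, read 846 to 858 in KMS11, 217 to 229 in KMS34 and 31.8 to 35.4 in KMS18 and OPM2, and thus did not follow CCL3 or CCR1. BMP6, a bone morphogenetic protein gene, was highest in KMS34, at 814, and had a knockdown difference of 0.14 (adjusted p = 0.618). VEGFA ranged from 217 in OPM2 to 456 in KMS11 as line means. ANXA2 had a difference of 0.15 (adjusted p = 0.626) and SDC1 one of 0.12, higher in 4 of 4 lines (adjusted p = 0.658). Of the myeloid, T and NK cell, and stromal and endothelial markers, limma called 0 of the 14 tested, and CST3, a widely expressed protease inhibitor gene, alone had an unadjusted p under 0.05 (0.15, adjusted p = 0.578).

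The genes most like each member were sought among 2037 other tested genes whose line means spanned at least 2-fold, by Pearson's r of log2 values over the 8 arrays. These points share 4 lines, and many genes that set KMS18 apart reach a high r. Nearest to CCL3 were the metalloprotease gene ADAM28 (r = 0.93), the pseudogene OCLNP1 (0.93), whose probes may also read its parent gene, the peptidase gene DPP7 (0.92), TMEM87B (0.92) and the vasodilator peptide gene ADM (0.91). ADM had a line mean of 765 in KMS18, 205 in KMS34, 125 in KMS11 and 124 in OPM2. The lowest r with CCL3 were those of the deubiquitinase gene USP2 (-0.95), the mitochondrial ribosome gene MRPL45 (-0.94) and the membrane linker gene EZR (-0.94).

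Nearest to CCR1 were WWC2 (r = 0.99), the RNA-binding protein gene CPEB2 (0.99), the isoprenoid synthesis gene IDI1 (0.99), RRP36 (0.99) and the Golgi complex gene COG7 (0.99). WWC2 had line means of 241 in KMS11, 205 in OPM2, 150.3 in KMS34 and 57.3 in KMS18. The lowest r with CCR1 were those of the helicase gene RECQL4 (-0.99), the splicing regulator gene ESRP1 (-0.99) and the cytochrome gene CYC1 (-0.98). ESRP1 read 869 as a line mean in KMS18 against 46.2 to 104 in the other lines. The 8 arrays include the knockdowns, so the choice of these 16 genes bears on their own knockdown values, which are not read here. With rank correlation in place of r, 3 of the 5 genes nearest to CCL3 and 1 of the 5 nearest to CCR1 remained, and with the 4 control arrays alone 0 and 2 remained.

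**Figure D4:**
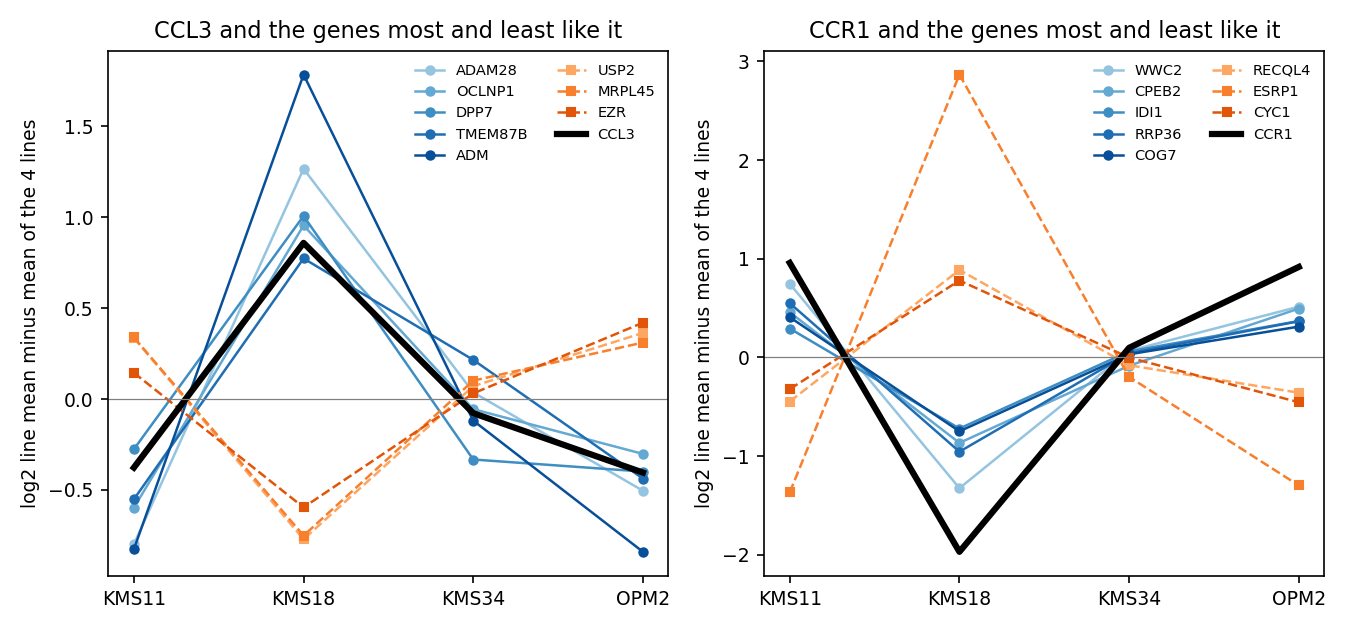
Line means of CCL3 and CCR1 (black), the 5 genes with the highest r (blue, solid) and the 3 with the lowest r (orange, dashed), as log2 line mean minus the mean of the 4 lines. KMS18 departs furthest from the other lines in both panels, up for CCL3 and down for CCR1.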

How the data were processed

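RNA of 4 myeloma lines was hybridised to Affymetrix Human Gene arrays with 1 colour. The authors deposited linear intensities, analysed in GeneSpring per the series text; the sources used here do not give the background correction, normalization or summarization. The array medians were 49.3 to 53.5. The 44629 rows were named through the platform annotation, which gave 1 symbol for 15835 rows, several for 0 and none for 28794. All 15835 gene identifiers were found in a RefSeq table of GRCh38.p14, and 0 symbols changed. Each of 14812 genes was represented by its brightest row (651 had more than 1). The 25th percentile of the genes' mean log2 values (46.7 in intensity) was the lower limit for testing, passed by 11109 genes. Raw probe signals were not used here, and the number of arrays limits precision.

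The log2 values were fitted with limma 3.58.1 in R 4.3.3 (lmFit, eBayes), with cell line as a fixed block because the labels pair control and knockdown by line, and Benjamini-Hochberg adjustment over all genes tested at a threshold of 0.05. Differences between lines were tested with the moderated F test of the same fit. Nothing in the labels says that cultures were repeated within a line. The p-values for the knockdown thus weigh the mean difference against a moderated spread. In it eBayes draws each gene's own variation from line to line towards a value shared by all genes tested. The SE values given with the fit hold this moderated spread too. The F test between lines uses the same moderated spread, not repeated cultures of a line. The fit was tested on simulated data. The members, gene lists and tests were chosen with earlier results of these data known. Named were CCL3, CCR1, NSD2, GLO1, MAF and FGFR3, the tested ligands and receptors, the chromosomal neighbours, from each other list up to 4 members by knockdown difference and 3 by range of line means, and the genes most and least like each member. TNF, CXCL8, CCL4, CD14, LYZ, CD163, IRF4, XBP1 and the dim ligands and receptors were added after their values were seen. Alternatives were other scalings, filters, blocks, variance models, a pseudocount of 16, all rows, and leaving out each line.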

Additional observations from a re-analysis of the deposited data

Results flagged for a closer look

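In 276 sets of 4 values (control level, knockdown level and knockdown difference of each named gene), 18 had 1 line far from the other 3. Chance alone gives about 1 in 20, or 13.8, for independent sets of genes not chosen by their values. Here many genes were named for their line means or differences, and a gene's control and knockdown levels go together. The counts are therefore not compared. All values here are on the log2 scale and were measured with 1 array per line and condition. Several of the 18 concerned KMS18. The control level of CCL3 there, a gene picked with its levels known, was 7.32 (6.06 to 6.23 in the other lines). That of CCL3L1 was 8.06 (6.60 to 6.85). PLEK in KMS18 stood at 9.67 in the control and 9.61 in the knockdown, DPP7 at 8.47 and 8.65, MRPL45, low there, at 8.17 in the control and VWF at 5.96 in the knockdown. The level of ARID5A in the KMS11 knockdown was 10.07, and that of LTF 6.065. In KMS34 the control level of BMP6 was 9.62 and that of S100A9, the lowest, 6.59. In OPM2 the control level of FYCO1 was 7.03 and that of MPO 5.75, both below the other lines.

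Knockdown differences that stood apart were 0.39 for CD27, 0.38 for NKG7 and -0.25 for FGFR3 in KMS34, and 0.066 for COG7 in KMS11. The difference of FGFR3 in the other lines was -0.10 to -0.08.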

How the results depend on the processing

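The CCL3 difference was 0.33 to 0.49 when a line was left out and 0.36 to 0.42 otherwise. That of CCR1 was 0.14 to 0.29 and 0.20 to 0.23. Both genes were higher in 4 of 4 lines, so leaving out a line could not change either sign. The choice of block or variance model does not enter the difference itself. Of the 2 genes, 1 (CCL3) was called with the filter at the 50th percentile and 0 in every other setting. The range of line means rested on KMS18: leaving out lines gave 0.33 to 1.26 for CCL3 and 0.86 to 2.93 for CCR1, the lowest without KMS18 in both cases, and log2(value + 16) gave 2.66 for CCR1, against 2.93. The 13 calls for the knockdown became 4 with no filter, 21 with log2(value + 16), 0 in limma without the replicate block that pairs arrays by line (18 at an unadjusted p under 0.05), 3 with a random block, 29 with trend and robust, 1 over all rows, and 1 to 4 when a line was left out (4 without KMS11, 1 without KMS18, 2 without KMS34, 1 without OPM2). Between lines 8412 of 11109 genes were called, and 7153 to 7637 with a line left out. Over all rows, many of them without a gene symbol, 17968 of 33472 rows were called, so this count is not one of genes. Of the listed genes other than CCL3 and CCR1, 1 (GLO1) was called for the knockdown, and 0 without the replicate block. Of the 5 genes most like CCL3, 3 remained with Spearman's rho and 0 with controls alone, and of those most like CCR1, 1 and 2. The causes were not tested. For 90 other named genes, 1226 of 1227 values under the alternatives kept their call, and 34 values that were not called changed sign. Of these genes only GLO1 was called in the main fit, and it lost the call without the replicate block. For the others, keeping the call means only that they stayed uncalled, so the count says little about robustness. Without replicates within a line, differences in 1 line cannot be separated from array error, and levels near 46.7 may be background.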
